A study of Arabidopsis thaliana with 18 samples.

Results

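Leaves of submerged phyA-211 plants were compared with leaves of submerged wild-type plants in Arabidopsis thaliana. phyA-211 carries a mutated copy of PHYA, the gene of the photoreceptor phytochrome A. The genes compared were those with at least 1 TPM (the share of a library's transcripts that belongs to a gene, normalized for transcript length) in at least 3 of the 6 submerged libraries of these lines, which left 17612 of the 32833 genes listed. Each group held 3 replicate libraries from plants that were 4 weeks old and had been submerged for 6 hours. The title of every library also holds the word mock, and the titles do not say what it refers to. Both lines were also sampled in air, again with 3 libraries each, and the series holds 18 libraries in all with the ein3eil1 line. The labels do not state the background accession, the part of PHYA that is affected or whether each library is a single plant or a pool. The adjusted p-values below therefore measure the spread between these libraries, which may be technical.

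Phytochrome A is the photoreceptor for far-red light and for very weak light, and it moves from the cytoplasm to the nucleus after activation, where it acts on transcription. Plants under water are short of oxygen and accumulate ethylene. Low oxygen slows the plant cysteine oxidases, which otherwise mark the group VII ethylene response factors for destruction, and these factors then switch on genes of fermentation and sugar breakdown. The series title names a regulatory element of PHYA and escape from submergence, and the comparison of the submerged lines asks how leaf transcripts differ when PHYA is mutated.

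PHYA itself was lower in all 3 submerged phyA-211 libraries than in submerged wild type, a limited check of the labels. It stood at 22.0, 23.8 and 22.98 TPM in submerged wild type and at 7.50, 10.6 and 12.8 TPM in submerged phyA-211. The groups did not overlap, and PHYA fell by 1.11 ± 0.21 (SE) on the log2(TPM + 1) scale, the scale of all differences below (limma adjusted p = 0.0282). Without any one wild-type library or without phyA-211 replicate 2 the adjusted p lay between 0.112 and 0.150. In air PHYA was at 11.7 ± 1.32 TPM (SD, n = 3) in wild type and at 1.41 ± 0.364 TPM (n = 3) in phyA-211. Among the other phytochromes, PHYE rose, from 41.8, 41.1 and 40.7 TPM to 61.3, 107 and 127 TPM (1.17 ± 0.27, limma adjusted p = 0.0447), a call lost without any one library other than phyA-211 replicate 1 (adjusted p of 0.098 to 0.177). PHYB, which perceives red light, had 3.53 to 3.72 TPM in wild type and 4.29, 13.6 and 18.4 TPM in the mutant and did not pass (limma adjusted p = 0.0964). PHYC (2.17, 4.98 and 8 TPM in the mutant) and PHYD (5.59, 12.6 and 15.1 TPM) did not pass either. With the trend on transcript length described below removed, the PHYE difference was 0.14 (limma adjusted p = 0.438), and the PHYC and PHYD differences were below 0.

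One mutant library stood apart from the other two. Submerged phyA-211 replicate 1 correlated with the wild-type libraries at 0.953 to 0.957 across genes and with phyA-211 replicates 2 and 3 at 0.920 and 0.901, while replicates 2 and 3 correlated at 0.964. The median difference from the wild-type mean over all genes was 0.09 in replicate 1, 0.42 in replicate 2 and 0.51 in replicate 3, and 0.34 for the group. Differences of replicates 2 and 3 rose with transcript length, with a Spearman correlation across 17543 genes of 0.599 and 0.665 against 0.0781 in replicate 1. Set against the same submerged wild-type mean, the libraries of other groups had such a trend too, with correlations of 0.3002 to 0.423 in submerged ein3eil1, 0.356 to 0.426 in wild-type air, 0.127 to 0.387 in phyA-211 air and 0.468 to 0.502 in ein3eil1 air. Whether the mutant or the submerged wild-type libraries set the trend cannot be told apart from these values. In the fifth of genes with transcripts of up to 1051 bases the median difference was 0.08, -0.30 and -0.44 in replicates 1, 2 and 3, and in the fifth above 2450 bases it was 0.16, 1.098 and 1.39. Small nuclear RNAs made up 1.85% of replicate 1 and between 0.329% and 0.592% of the other 5 submerged libraries of these lines. In phyA-211 air they made up 2.04% of replicate 1 and 0.950% and 0.731% of replicates 2 and 3, against at most 0.0553% in wild-type air. The correlation with length in phyA-211 air was also lowest in replicate 1, at 0.127 against 0.387 and 0.3205 in replicates 2 and 3. The median SD of a gene was 0.379 in submerged phyA-211 and 0.0935 in submerged wild type. Whether length or library quality had a part in single results was not tested beyond the values given with them.

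**Figure D1:**
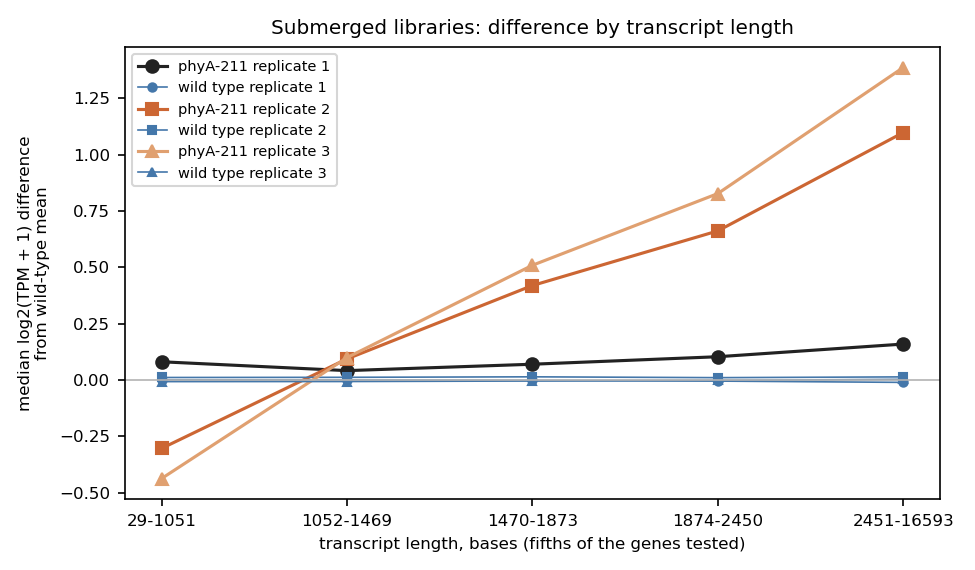
Median log2(TPM + 1) difference from the submerged wild-type mean (vertical axis) in 5 equal groups of genes ordered by transcript length in bases (horizontal axis). Each line is 1 library. phyA-211 replicates 2 and 3 climb from -0.30 and -0.44 to 1.098 and 1.39, replicate 1 stays between 0.04 and 0.16, and the wild-type lines lie near 0.

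Of the 17612 genes, 1087 rose and 557 fell in submerged phyA-211 at a limma adjusted p under 0.05, or 6.17% and 3.16% of the genes tested and 9.33% together. All 1644, again 9.33%, had every phyA-211 library outside the range of the wild-type libraries, against 36.3% of all genes tested that lay wholly above it and 11.6% that lay wholly below. With 3 libraries against 3 a call at this threshold itself favours such separation, so the count is no separate support. Genes under 1 TPM in every library of a group passed the filter only through the other, and such a call could go only that way: 110 of the genes that rose and 54 of those that fell are of this kind, out of 262 and 102 tested. Genes that reached 1 TPM in only part of the low group's libraries also leaned on the other group and are not in these counts. The change was at least 2-fold in 718 of the genes that rose and 317 of those that fell. The median difference of the genes that rose was 0.84, 1.29 and 1.37 in replicates 1, 2 and 3, and that of the genes that fell was -0.92, -1.102 and -1.13. Replicate 1 had the smallest of the 3 differences in 827 of the 1087 genes that rose. Over all genes tested, 3559 were at least 2-fold above the wild-type mean in both replicate 2 and replicate 3, and 362 of these were so in replicate 1 as well, where the median over the 3559 was 0.28.

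The number of calls depended on which libraries entered. Without replicate 1 of phyA-211, 9587 genes (54.4%) were called higher and 2905 (16.5%) lower, without replicate 2 the counts were 164 and 105, and without replicate 3 they were 452 and 322. With all 18 libraries of the series in the fit they were 6537 (37.1%) and 1324 (7.52%). Without 1 of the wild-type libraries between 107 and 126 genes were called higher and between 48 and 56 lower. 104 of the genes that rose and 39 of those that fell were called whichever library was left out. Removal of the length trend gave 1430 higher (8.15%) and 1574 lower (8.97%). Of the 104 and 39, 101 and 39 were also called after median centring, quantile normalization and removal of the length trend, and they are described below as held throughout. Centring each library on its median turned the balance of calls, with 698 higher (3.96%) and 1196 lower (6.79%), as did quantile normalization with 808 and 1023, so a direction below is relative to the TPM total unless stated.

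**Figure D2:**
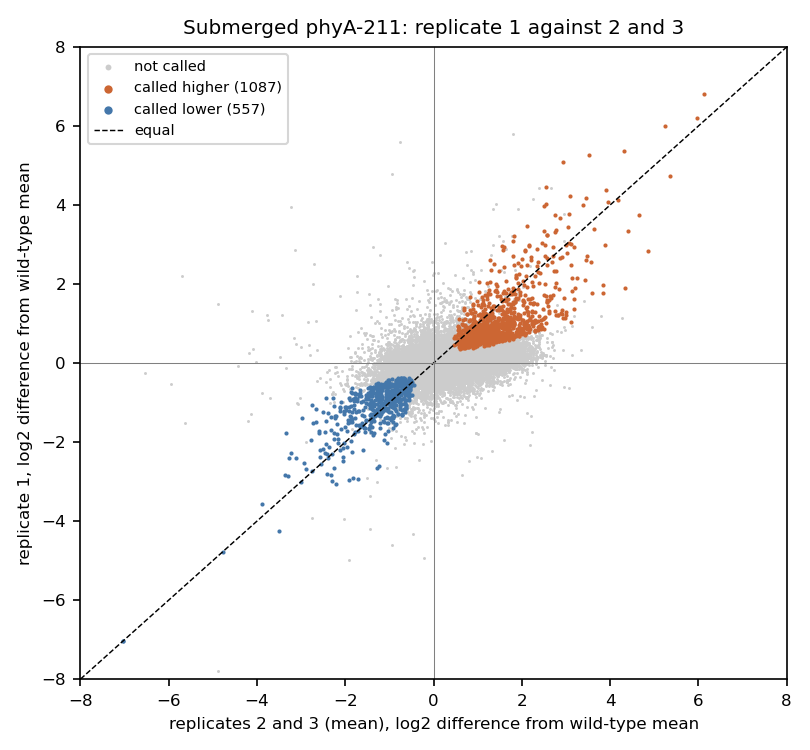
Difference of each gene from the submerged wild-type mean on the log2(TPM + 1) scale, in phyA-211 replicate 1 (vertical axis) and as the mean of replicates 2 and 3 (horizontal axis). Each point is 1 of 17612 genes. The 1087 genes that rose and the 557 that fell lie away from 0 in replicate 1 as well as in the other libraries, most of the genes that rose lie under the dashed line of equal differences, and the grey genes that were not called spread along the horizontal axis.

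The core hypoxia response was higher in submerged phyA-211. Of 32 of its genes tested, 23 rose (71.9%) and none fell, against 6.17% and 3.16% of all genes, and 28 had every mutant library above every wild-type one, as did 36.3% of all genes. This list and those below were chosen with earlier results of these data known, so their shares describe these libraries and are no independent support. One of the 23, SUS4, passed the filter only through the mutant. The median difference was 1.22, 1.70 and 1.73 in replicates 1, 2 and 3, so it was above the median of all genes in each library. Of the 23, 11 were called whichever library was left out, and after removal of the length trend 25 rose and 1 fell with a median of 1.33. Summed over the list, TPM was between 15540 and 16220 in wild type and 28090, 25870 and 24400 in phyA-211.

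LBD41, HRA1, PCO1 and PCO2 had every mutant library above every wild-type one. LBD41, a LOB domain protein and a marker of low oxygen, stood at 69.1, 80.8 and 72.1 TPM in wild type and at 781, 950 and 895 TPM in phyA-211. It rose by 3.54 ± 0.14 (limma adjusted p = 0.000276). HRA1 (AT3G10040), a trihelix factor that restrains the group VII factor RAP2.12, went from 10.6, 11.7 and 11.9 TPM to 125, 244 and 282 TPM (4.06 ± 0.30, limma adjusted p = 0.00175). The plant cysteine oxidase genes PCO1 (AT5G15120) and PCO2 (AT5G39890) were as high in replicate 1 as in the others. PCO1 went from 46.1, 44.5 and 46.7 TPM to 170, 148 and 151 TPM (1.75 ± 0.12, limma adjusted p = 0.00115). PCO2 went from 19.7, 19.4 and 21.7 TPM to 161, 140 and 137 TPM (2.79 ± 0.13, limma adjusted p = 0.000369). These 4 genes held throughout.

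The other 11 oxygen sensing genes did not pass. The group VII factors RAP2.12 and RAP2.2 had adjusted p-values of 0.0645 and 0.0698 by limma, with RAP2.2 at 244.7 TPM on average in wild type and 317, 659 and 777 TPM in the mutant. RAP2.3 was at 3246 TPM in wild type and 3431, 3134 and 3004 TPM in the mutant. HRE1 and HRE2, the group VII factors whose own transcripts rise in low oxygen, differed by 0.23 and 0.58 (limma adjusted p = 0.272 and 0.0803). PCO3, PCO4 and PCO5, the other cysteine oxidase genes, lay between -0.41 and 0.29. With the length trend removed RAP2.12, RAP2.2 and HRE2 passed (limma adjusted p = 0.0433, 0.0447 and 0.00688).

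PDC1, PDC2, ADH1 and SUS1 of the hypoxia list were above wild type in each mutant library, with the smallest difference in replicate 1. PDC1 (AT4G33070), a pyruvate decarboxylase gene, went from 53.8, 53.6 and 54.1 TPM to 236, 541 and 651 TPM (3.00 ± 0.36, limma adjusted p = 0.00798). PDC2 went from 15.8, 14.9 and 12.1 TPM to 51.3, 203 and 233 TPM (3.16 ± 0.56, limma adjusted p = 0.0237). ADH1, alcohol dehydrogenase, went from 412, 414 and 412 TPM to 826, 1848 and 2058 TPM (1.83 ± 0.34, limma adjusted p = 0.0281). SUS1, a sucrose synthase that feeds sucrose into glycolysis, went from 75.6, 77.7 and 80.4 TPM to 182, 483 and 634 TPM (2.28 ± 0.44, limma adjusted p = 0.0297). Each of these lost its call without any one wild-type library or without phyA-211 replicate 2, and PDC2, ADH1 and SUS1 also without phyA-211 replicate 3, with an adjusted p of at most 0.137. The haemoglobin gene HB1, which scavenges nitric oxide, had 7913 to 8333 TPM in wild type and 10518, 5517 and 3862 TPM in phyA-211, with replicate 1 above and replicates 2 and 3 below (-0.41, limma adjusted p = 0.375).

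Other members of the hypoxia list were highest in replicate 1. AT4G10270, annotated as wound-responsive, went from 76.1, 75.7 and 82.5 TPM to 1062, 582 and 484 TPM (3.08 ± 0.29, limma adjusted p = 0.00346). AT5G66985, an uncharacterized protein, went from 135, 128 and 111 TPM to 969, 634 and 497 TPM (2.43 ± 0.25, limma adjusted p = 0.00477). SRO5, a member of the RCD1-like family of stress responses, went from 27.6, 26.7 and 27.1 TPM to 199, 131 and 104 TPM (2.32 ± 0.24, limma adjusted p = 0.00467). All 3 held throughout. Of 26 glycolysis genes, 6 rose (23.1%) and 1 fell (3.85%), against 6.17% and 3.16% of all genes, with list medians of 0.18, 1.05 and 1.19 in replicates 1, 2 and 3. Among them GAPC2, a cytosolic glyceraldehyde-3-phosphate dehydrogenase, was at 563 to 596 TPM in wild type and 940, 1218 and 1271 TPM in the mutant. HXK2, a hexokinase, was at 14.6 to 17.1 TPM and 32.0, 42.4 and 54.7 TPM. No glycolysis call was kept whichever library was left out.

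**Figure D3:**
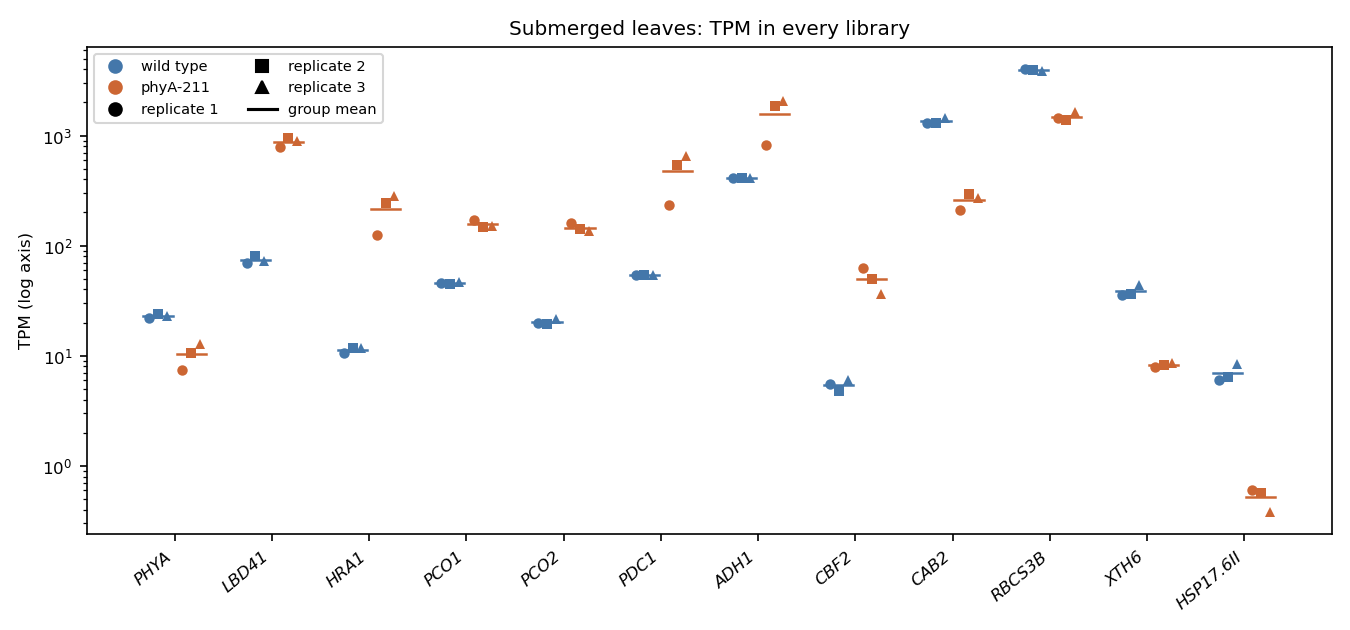
TPM on a log axis of 12 genes in every submerged library of wild type and phyA-211. Markers give the replicate number and horizontal strokes the group means. The groups do not overlap in any of the 12, LBD41, PCO1, PCO2, CAB2, RBCS3B and XTH6 have close mutant libraries, and PDC1, ADH1 and HRA1 are lowest in mutant replicate 1.

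Nuclear genes of light harvesting and carbon fixation were lower in submerged phyA-211. Of 35 tested, 18 fell (51.4%) and none rose, against 3.16% and 6.17% of all genes. In 30 every mutant library was under every wild-type one, as in 11.6% of all genes. Their median difference was -0.82, -0.66 and -0.57 in replicates 1, 2 and 3, against 0.09, 0.42 and 0.51 for all genes. Their summed TPM was between 99050 and 101000 in wild type and 51990, 50990 and 45820 in the mutant. After median centring 26 fell and after removal of the length trend 24 fell and 1 rose. Of the 18, 6 were called whichever library was left out.

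CAB2 and CAB3, which encode chlorophyll-binding proteins of the main photosystem II antenna, fell in all 3 mutant libraries by similar amounts. CAB2 went from 1302, 1300 and 1429 TPM to 213, 296 and 269 TPM, a fall by 2.38 ± 0.16 (limma adjusted p = 0.00111). CAB3 went from 1342, 1388 and 1414 TPM to 313, 344 and 359 TPM and fell by 2.03 ± 0.12 (limma adjusted p = 0.000868). LHCA4, of the photosystem I antenna, went from 3085, 3063 and 3145 TPM to 1232, 1081 and 1001 TPM and fell by 1.49 ± 0.13 (limma adjusted p = 0.0026). RBCS3B, a small subunit of Rubisco, went from 4005, 3973 and 3877 TPM to 1441, 1383 and 1629 TPM and fell by 1.42 ± 0.13 (limma adjusted p = 0.00273). All 4 held throughout, although the CAB and RBCS genes have near-identical copies between which reads may be split. LHB1B1, another antenna gene, had 757 to 884 TPM in wild type and 43.3, 279 and 320 TPM in the mutant, all under wild type, and did not pass (limma adjusted p = 0.0788). RCA, Rubisco activase, was at 661 to 665 TPM in wild type and at 523, 931 and 1184 TPM in the mutant (0.33, limma adjusted p = 0.401), and GLK1, a factor that drives such genes, differed by 0.06 (limma adjusted p = 0.742).

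Of 9 leaf mesophyll markers, 5 fell (55.6%, against 3.16% of all genes), with summed TPM of 44400 to 45390 in wild type and 17970, 19810 and 19270 in phyA-211. All of them but CA1, a carbonic anhydrase, are also in the photosynthesis list, and fewer mesophyll cells and less RNA per cell cannot be told apart in bulk leaves. Of 8 epidermis and cuticle markers, 2 fell (25%, against 3.16% of all genes). The list's median difference was 0.70 (-0.06, 0.88 and 0.93 in replicates 1, 2 and 3). In it 3 members lay wholly above wild type and 3 wholly below, as did 36.3% and 11.6% of all genes. LP1, a lipid transfer protein and one of the 2, was at 1130 to 1209 TPM in wild type and 675, 420 and 272 TPM in the mutant. The other 7 summed to 136.6 to 140.7 TPM in wild type and 153.9, 292.4 and 304.7 TPM in the mutant. Of 8 vascular markers 1 rose (12.5%, against 6.17% of all genes), SUC2, the phloem sucrose carrier. In that list 2 members lay wholly above wild type and 1 wholly below. No stomatal marker of 8 passed. LP1 and SUC2 lost their calls without any one library other than phyA-211 replicate 1, with an adjusted p of at most 0.187, and LP1 also after median centring (limma adjusted p = 0.0531). Of 12 markers of root, flower, pollen and seed only PI, a floral regulator, passed the filter and did not pass the test. The part of cell composition in other results was not tested.

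Among 33 stress transcription factors, 10 rose (30.3%) and 2 fell (6.06%), against 6.17% and 3.16% of all genes. CBF2, a cold and drought regulator, was at 5.60, 4.82 and 6.01 TPM in wild type and at 62.9, 49.4 and 36.5 TPM in phyA-211, with replicate 1 the highest (2.94 ± 0.22, limma adjusted p = 0.00181). CBF1 went from 0.31, 0.42 and 0.29 TPM to 12.5, 7.33 and 5.92 TPM (2.78 ± 0.28, limma adjusted p = 0.00407). CBF1 passed the filter only through the mutant, so its call could only be a rise and adds no support. RHL41 (ZAT12), a zinc finger protein of the oxidative stress response, went from 52.4, 54.3 and 60.3 TPM to 231, 238 and 187 TPM (1.95 ± 0.14, limma adjusted p = 0.00154). These 3 held throughout, although reads of the similar CBF copies may be split between them. The median over the list was 0.24, 0.57 and 0.70 in replicates 1, 2 and 3, against 0.09, 0.42 and 0.51 for all genes.

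Of 28 heat shock genes tested, 9 fell and none rose, namely 8 small heat shock proteins, which are chaperones that bind unfolding proteins, and the factor HSFB1. The share of 32.1%, against 3.16% of all genes, cannot be read as a result about the list, since 6 of the 9 passed the filter only through wild type, where they were high. Those 6 include HSP17.6II and HSP23.6-MITO, the 2 that were called whichever library was left out. HSP17.6II stood at 5.99, 6.43 and 8.40 TPM in wild type and at 0.61, 0.57 and 0.38 TPM in phyA-211 and fell by 2.38 ± 0.19 (limma adjusted p = 0.00195). HSP23.6-MITO, of the mitochondrion, stood at 2.16, 2.05 and 2.39 TPM and at 0.11, 0.07 and 0 TPM (limma adjusted p = 0.00346). HSP17.6A went from 15.6, 17.7 and 13.1 TPM to 2.39, 3.29 and 1.05 TPM (limma adjusted p = 0.00928), a call lost without any one wild-type library at an adjusted p of 0.057 to 0.0682. HSP90.1 was at 3.48 to 3.95 TPM in wild type and at 2.73, 9.97 and 13.9 TPM in the mutant, below in replicate 1 and above in the other two (limma adjusted p = 0.219).

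Of 29 cell wall expansion genes tested, 3 rose (10.3%) and 6 fell (20.7%), against 6.17% and 3.16% of all genes, and 1 and 2 of these were called whichever library was left out. EXPA8, an expansin that loosens walls, went from 26.2, 27.4 and 31.7 TPM to 76.8, 72.1 and 71.0 TPM (1.34 ± 0.13, limma adjusted p = 0.00375). The other 2 that rose were also expansins, EXPA1 (413 to 428 TPM against 1399, 1056 and 964 TPM) and EXPA10 (27.6 to 29.6 TPM against 103, 67.1 and 53.1 TPM). EXPA1 and EXPA10 lost their calls without any one wild-type library, EXPA10 also without phyA-211 replicate 2, and both after median centring (limma adjusted p = 0.0897 and 0.159). XTH6, a xyloglucan endotransglucosylase/hydrolase, which cuts and rejoins wall xyloglucan, went from 35.7, 36.1 and 44.2 TPM to 7.86, 8.32 and 8.62 TPM and fell by 2.09 ± 0.15 (limma adjusted p = 0.00154). XTH9 went from 14.9, 16.4 and 14.7 TPM to 4.46, 3.6 and 4.08 TPM and fell by 1.70 ± 0.17 (limma adjusted p = 0.00375). EXPA8, XTH6 and XTH9 held throughout, and XTH4, XTH18 and XTH32 and the expansin-like gene EXLA1 were the others that fell.

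Among 25 genes of ethylene synthesis and signalling, 8 rose (32%) and 1 fell (4%), against 6.17% and 3.16% of all genes, with medians of 0.23, 0.87 and 1.07 in replicates 1, 2 and 3. ARL, an ARGOS-like gene that promotes cell expansion, went from 161, 147 and 153 TPM to 322, 453 and 457 TPM (1.39 ± 0.17, limma adjusted p = 0.00794). Its call was lost without any one wild-type library or phyA-211 replicate 2, with an adjusted p of at most 0.0667. The receptor gene ETR2 went from 22.7, 24.8 and 25.6 TPM to 56.9, 103 and 135 TPM (1.89 ± 0.31, limma adjusted p = 0.0189). ACS11, an ACC synthase, fell from 8.84, 7.76 and 9.62 TPM to 2.08, 2.19 and 2.39 TPM (limma adjusted p = 0.00553), a call lost without wild-type replicate 1 or 3 at an adjusted p of at most 0.0558. The signalling genes CTR1, EIN2 and EIN3 did not pass (limma adjusted p = 0.120, 0.0932 and 0.113): EIN3, for one, was at 49.6 to 57.0 TPM in wild type and at 55.8, 130 and 160 TPM in the mutant, inside the wild-type range in replicate 1. No ethylene call was kept whichever library was left out, with 0 to 19 members called higher, and the highest count came without phyA-211 replicate 1.

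Of 28 light signalling genes, 3 rose (10.7%) and 1 fell (3.57%), PHYA itself, against 6.17% and 3.16% of all genes. FHL, which carries phytochrome A into the nucleus, went from 9.88, 9.92 and 7.96 TPM to 21.3, 30.5 and 30.6 TPM (1.46 ± 0.20, limma adjusted p = 0.0114). Among 17 shade avoidance genes none rose and 2 fell (11.8%), HB-2 (ATHB2), a homeodomain factor induced by shade, from 14.6 to 16.8 TPM to 7.44, 9.27 and 8.15 TPM, and PAR1, a factor that restrains shade growth, from 52.5 to 57.7 TPM to 30.9, 19.7 and 11.95 TPM. The limma adjusted p was 0.0316 for HB-2 and 0.0415 for PAR1. Of 27 auxin response genes, 2 rose (7.41%) and 3 fell (11.1%), among them IAA29, a repressor of auxin response, from 33.1, 33.0 and 30.0 TPM to 13.3, 12.2 and 11.9 TPM (limma adjusted p = 0.00477). FHL lost its call without any one wild-type library or phyA-211 replicate 2, HB-2 and PAR1 also without phyA-211 replicate 3, and IAA29 without wild-type replicate 1 or 2, at an adjusted p of at most 0.174.

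Of 15 gibberellin genes, 3 rose (20%, against 6.17% of all genes), RGL1 and RGA1, which encode DELLA repressors, and GID1A, a gibberellin receptor. RGL1 went from 10.4, 9.08 and 8.32 TPM to 25.4, 29.0 and 25.9 TPM (1.44 ± 0.16, limma adjusted p = 0.00507), and lost its call without wild-type replicate 2 or 3 at an adjusted p of at most 0.0524. Of 14 abscisic acid genes, 3 rose (21.4%), among them the response factor genes ABF2 and ABF4. ABF2 lost its call after median centring and after removal of the length trend (limma adjusted p = 0.147 and 0.389), and ABF4 kept it in both. GID1A also lost its call in both (limma adjusted p = 0.0851 and 0.0539). The median difference of the abscisic acid list was 0.60, and 0.03 with the length trend removed. Of 29 clock genes, 4 rose (13.8%) and 2 fell (6.90%, against 3.16% of all genes). The 4 were the morning genes CCA1, LHY, RVE1 and RVE8, none of which was called after the length trend was removed, with adjusted p-values between 0.0843 and 0.292. CDF1, a repressor of flowering, fell from 4.03, 3.38 and 3.77 TPM to 1.49, 1.37 and 1.59 TPM (limma adjusted p = 0.0243). No gibberellin, abscisic acid or clock call was kept whichever library was left out.

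Of 16 phenylpropanoid and flavonoid genes, 3 rose (18.8%, against 6.17% of all genes), and 2 held throughout. TT4, chalcone synthase, the entry enzyme of flavonoids, went from 22.96, 24.5 and 22.4 TPM to 64.4, 69.9 and 68.8 TPM (1.499 ± 0.12, limma adjusted p = 0.0019). MYB90, an activator of anthocyanin genes, went from 1.44, 2.55 and 2.61 TPM to 18.3, 16.4 and 10.99 TPM (2.34 ± 0.27, limma adjusted p = 0.00655). In air TT4 was also higher in the mutant, at 498 ± 138 TPM against 187.5 ± 67.4 TPM. Its submerged difference minus that in air was 0.07 (limma adjusted p = 0.882), and that of MYB90 was 1.23 (limma adjusted p = 0.1645). Of the 16 genes, 8 were called higher in air and 1 lower, against 1.02% and 2.01% of all genes. Of 27 glucosinolate genes, 5 rose (18.5%), with medians of 0.24, 1.15 and 1.27 in replicates 1, 2 and 3. MYB51, an activator of indolic glucosinolate genes, went from 158 to 164 TPM to 251, 385 and 429 TPM (limma adjusted p = 0.0301), and no glucosinolate call was kept whichever library was left out. AT1G04770, a tetratricopeptide repeat protein in the sulfur deficiency list, went from 3.55, 3.89 and 5.32 TPM to 40.3, 66.7 and 85.9 TPM (3.58 ± 0.30, limma adjusted p = 0.00234). It was the single call among 14 (7.14%), near the 6.17% of all genes, so the count is no result about that list. Of 17 genes in the mitochondrial retrograde list, 1 rose (5.88%) and 2 fell (11.8%), against 6.17% and 3.16% of all genes. DIC2, a mitochondrial dicarboxylate carrier, went from 127, 127 and 121 TPM to 277, 352 and 338 TPM (1.35 ± 0.14, limma adjusted p = 0.00404). GSTU24, a glutathione transferase, fell from 7.23, 9.23 and 8.58 TPM to 1.89, 0.49 and 1.33 TPM (limma adjusted p = 0.0109), a call lost without any one wild-type library. AT1G04770 and DIC2 held throughout.

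Of 27 defence genes, 3 fell (11.1%) and 1 rose (3.70%), against 3.16% and 6.17% of all genes. PR1, a marker of salicylic acid response, went from 462 to 481 TPM to 200.1, 264 and 223 TPM and fell by 1.05 ± 0.14 (limma adjusted p = 0.0107). Its call was lost with all 18 libraries in the fit. In air PR1 was at 704 to 973 TPM in wild type and at 837, 97.4 and 32.9 TPM in the mutant. The defence list's median difference was -0.45, 0.41 and 0.48 in replicates 1, 2 and 3. In air 7 of the 27 were called lower and none higher, against 2.01% and 1.02% of all genes. For 12 of the 27 the submerged difference was above that in air and for none below, against 8.86% and 2.42%. Of 31 jasmonate genes, 4 rose (12.9%) and 2 fell (6.45%). PDF1.2, a defensin, was at 830.0 to 867 TPM in wild type and at 5152, 2256 and 1876 TPM in the mutant, while the storage protein genes VSP1 and VSP2 fell. Of 22 aquaporin genes, 3 fell (13.6%) and 1 rose (4.55%), with DELTA-TIP, of the vacuole membrane, at 331 to 346 TPM in wild type and 107, 175 and 181 TPM in the mutant (limma adjusted p = 0.0279). Dark starvation and autophagy genes gave 1 fall each, DIN2 of 26 (3.85%) and ATG8H of 27 (3.70%), near the 3.16% of all genes, and DIN2 passed the filter only through wild type. None of these defence, jasmonate, aquaporin, starvation and autophagy calls was kept whichever library was left out.

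The 101 genes of cytosolic ribosomal proteins gave no call, with 34690 TPM in replicate 1 of phyA-211, 22010 and 18510 TPM in replicates 2 and 3, and 31310 to 31910 TPM in wild type. Their median difference was 0.16, -0.35 and -0.61, so its sign was not the same in every mutant library, and without replicate 1 limma called 67 of them lower and 11 higher.

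**Figure D4:**
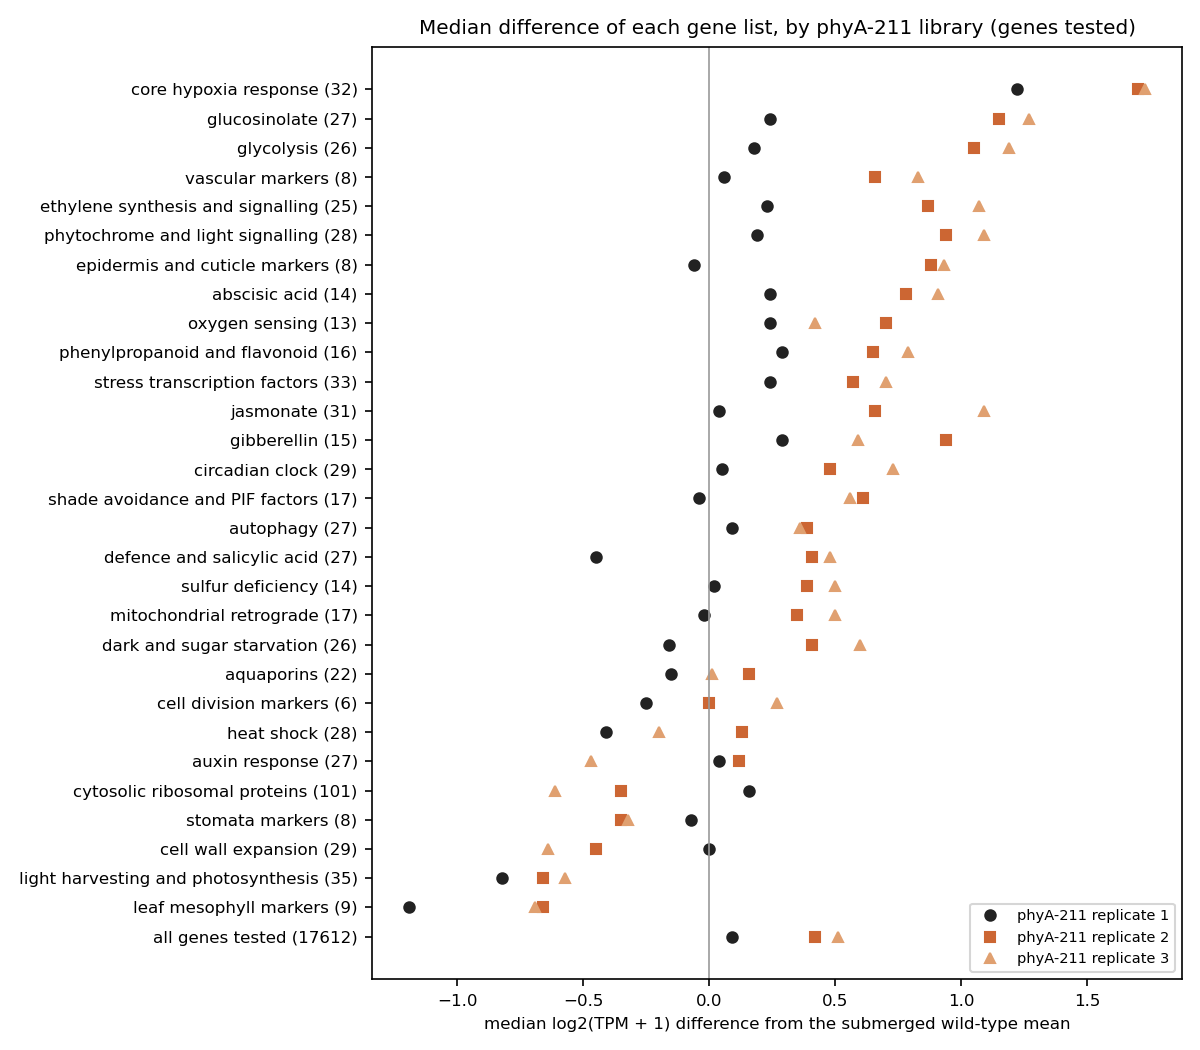
Median log2(TPM + 1) difference from the submerged wild-type mean (horizontal axis) of each gene list with at least 5 genes tested, 1 marker per phyA-211 library, with the number of genes in parentheses. Hypoxia genes lie at 1.22 or more and photosynthesis genes at -0.57 or less in every library, and the ribosomal protein genes lie on both sides of 0.

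The largest changes included genes outside these lists. MRD1, a gene named for its response in a methionine mutant, was at 0.82, 0.41 and 1.33 TPM in wild type and at 134, 122.57 and 103 TPM in phyA-211 (6.05 ± 0.23, limma adjusted p = 0.000276). With wild-type values of 0.82 and 0.41 TPM it met the filter only with its mutant libraries, so its call adds no support. QRT1, a pectin methylesterase needed for pollen tetrads to separate, went from 0.21, 0.47 and 0.13 TPM to 32.5, 44.8 and 57.6 TPM (5.15 ± 0.26, limma adjusted p = 0.000455), and it passed the filter only through the mutant, so its call adds no support. Both were also higher in phyA-211 in air, MRD1 at 34.7 ± 9.94 TPM against 0.323 ± 0.307 and QRT1 at 7.36 ± 0.525 TPM against 0.523 ± 0.348 (n = 3 each). NUDT21, a nudix hydrolase homolog, went from 28.1, 27.4 and 27.3 TPM to 229, 260.5 and 233 TPM (3.08 ± 0.12, limma adjusted p = 0.000276). In air it was lower in the mutant, at 15.4 ± 3.11 TPM against 54.9 ± 17.5 TPM.

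SRO4, an RCD1-like gene, was listed at 0 in all 6 air libraries of these lines and went from 2.05 to 2.71 TPM in submerged wild type to 25.3, 30.1 and 21.8 TPM in submerged phyA-211. ACR7, an ACT domain protein, went from 7.01 to 7.85 TPM to 48.3, 88.5 and 111 TPM. These, with MRD1, QRT1 and NUDT21, held throughout, which adds no support for MRD1 and QRT1, since they met the filter through the mutant. RLP19, a receptor-like protein, and EMB2770, a splicing factor, were at 19.0, 98.3 and 118 TPM and at 22.1, 71.4 and 96.5 TPM in the mutant against 4.17 to 4.54 and 4.69 to 5.29 TPM. Their calls were lost without any one wild-type library or without phyA-211 replicate 2, and that of RLP19 also without phyA-211 replicate 3, with an adjusted p of at most 0.127.

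Among the largest falls, UPI, a serine protease inhibitor, went from 66.6, 64.5 and 79.2 TPM to 8.68, 4.69 and 8.06 TPM (limma adjusted p = 0.00173), and fell by 3.16 ± 0.24. AGP2, an arabinogalactan protein of the cell surface, went from 85.6, 94.1 and 83.8 TPM to 12.3, 14.96 and 9.81 TPM and fell by 2.75 ± 0.18 (limma adjusted p = 0.00106). GASA1, a gibberellin-regulated peptide, went from 711, 709 and 703 TPM to 88.1, 148 and 139 TPM and fell by 2.53 ± 0.21 (limma adjusted p = 0.00234). TPX2, here a thioredoxin-dependent peroxidase, went from 229 to 234 TPM to 43.5, 52.1 and 27.7 TPM. GER3, a germin of the cell wall, went from 110.2 to 113 TPM to 24.0, 21.7 and 16.4 TPM. These 5 held throughout. SAE1B (AT5G50580), a subunit of the SUMO-activating enzyme with a near-identical copy in the genome, went from 8, 13.04 and 24.8 TPM to 0.24, 0 and 0 TPM, and passed the filter only through wild type. The copy AT5G50680 went from 32.7, 26.2 and 13.4 TPM to 50.7, 39.3 and 36.3 TPM and was not called, and reads may be split between the copies.

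Of 20 called genes whose other group was listed at 0 in every library, 12 rose and 8 fell. They passed the filter only through the group where they were high, which fixed their direction, so they are described with no test and were singled out after their values were seen. The lncRNA locus AT3G06955 was listed at 0 in the 3 submerged wild-type libraries and at 112, 58.6 and 82.3 TPM in phyA-211. AT1G27565, an uncharacterized protein, was listed at 0 there and at 63.2, 40.1 and 33.9 TPM in phyA-211.

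In air, with 3 libraries of each line, 179 genes were called higher and 354 lower, or 1.02% and 2.01% of the 17612. The 2 comparisons share no library. 75 genes were higher in both, which is 6.90% of those that rose under submergence and 41.9% of those higher in air, and 22 were lower in both, or 3.95% and 6.21%. In the opposite direction, 16 rose under submergence and were lower in air, which is 1.47% of those that rose and 4.52% of those lower in air. Another 2 fell under submergence and were higher in air, or 0.359% and 1.12%. Of all genes tested, 6.17% rose and 3.16% fell under submergence. For 1560 genes the submerged difference was above the air difference and for 426 below it by limma, or 8.86% and 2.42%. Of the core hypoxia genes, none was called higher in air and 2 were called lower, and for 20 of 32 the submerged difference was above that in air. LBD41 was at 3.24 ± 2.64 TPM in wild-type air and 2.06 ± 1.45 TPM in phyA-211 air (n = 3 each). For photosynthesis genes none was called in air, and for 8 of 35 the submerged difference was below the one in air. CAB2 was at 7133 ± 444 TPM in wild-type air and 5469 ± 1838 TPM in phyA-211 air.

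**Figure D5:**
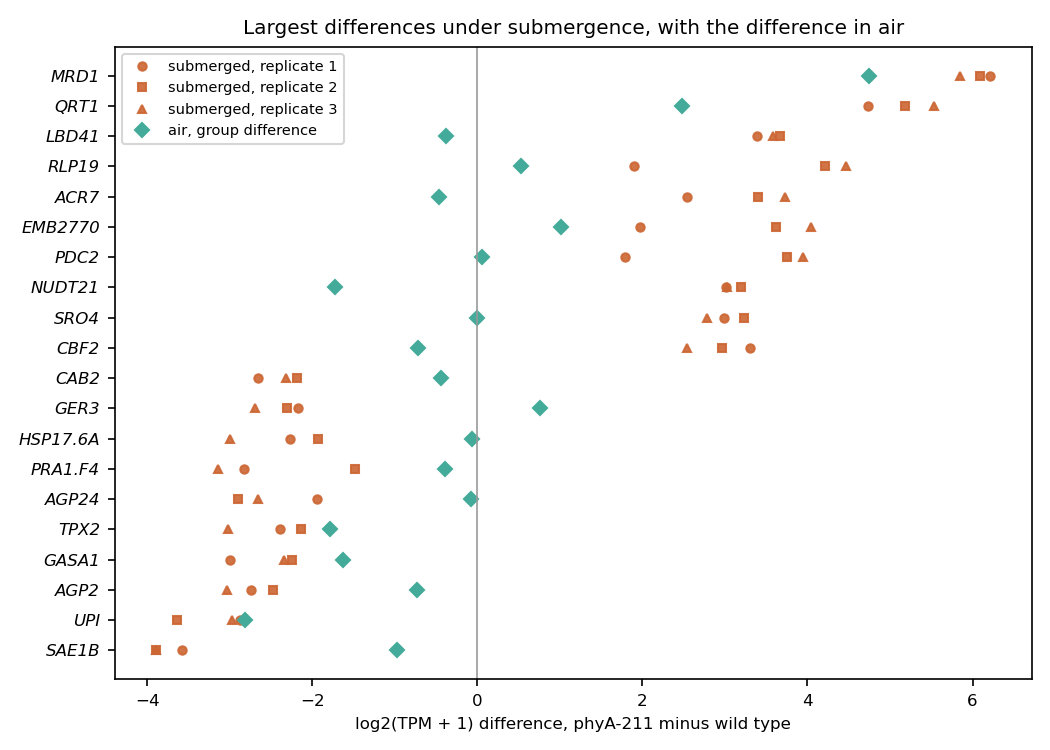
Difference of phyA-211 from wild type on the log2(TPM + 1) scale for the 10 largest rises and 10 largest falls under submergence, with each submerged mutant library against the submerged wild-type mean and the difference of group means in air. In air MRD1, QRT1, EMB2770 and UPI were called in the same direction and NUDT21 in the opposite one. Among the genes not called in air, GASA1 and TPX2 lie at -1.63 and -1.78, on the same side as under submergence. GER3 at 0.75 and CBF2 at -0.72 lie on the other side, and LBD41 and SRO4 lie at -0.38 and 0.

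Genes with the widest split between mutant libraries were taken by their values and are described only. AGP21, an arabinogalactan protein, was at 255 to 273 TPM in wild type and at 202, 52.7 and 35.6 TPM in phyA-211. PDF1.3, a defensin, was at 323 to 336 TPM in wild type and at 878, 268 and 122.86 TPM in phyA-211, above in replicate 1 and below in replicates 2 and 3. MT1A, a metallothionein, was at 1584 to 2462 TPM in wild type and in the mutant at 1695 TPM in replicate 1, listed at 0 in replicate 2 and at 462 TPM in replicate 3. BXL1, a beta-xylosidase of the wall, was at 64.2 to 67.8 TPM in wild type and at 28.9, 168 and 210.52 TPM in the mutant. SYD, a chromatin remodelling ATPase, was at 4.36 TPM in replicate 1, within the range of 4.25 to 4.81 TPM of wild type, and at 26.1 and 36.6 TPM in replicates 2 and 3. ATMRK1, a protein kinase, was at 4.19, 32.9 and 35.3 TPM, and AT7SL-1, a locus named for the RNA of the signal recognition particle, was at 132, 12.6 and 39.4 TPM against 33.4 to 47.6 TPM in wild type. None of these genes passed the test.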

How the data were processed

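Leaf messenger RNA was enriched by oligo(dT), and cDNA was primed at random, per the labels' protocols. Strand is not given in the sources used here. The authors deposited 1 value per gene and library. The unit is not named and was inferred to be TPM from the deposited values, which sum to between 996105 and 998620 per library. fastp, cutadapt, HISAT2, DESeq2 and TAIR10 are named without versions or roles, per the submitters' processing notes. TPM keeps no depth, so counting error is unknown. The planned test for counts was not used because the table holds none. Names, biotypes and transcript lengths came from RefSeq TAIR10.1, which is not the authors' build, so no coordinates or sequences are given (285 genes were unmatched).

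Values on the log2(TPM + 1) scale were compared in limma 3.58.1 under R 4.3.3 (two-sided moderated test, intensity trend, robust option), on the 6 submerged libraries, with Benjamini-Hochberg adjustment over 17612 genes at 0.05. The 12 libraries of both lines gave the difference between conditions. An exact test of 3 against 3 cannot give p below 0.1. On simulated data with the groups' unequal spreads, the share of false calls was several times the threshold, so the adjusted p-values can understate error. Few genes were changed there and the noise was independent between genes, so the share of false calls in these data is not known. Differences understate changes of genes with low values. Members, 24 pathway lists and 6 marker lists were chosen with earlier results of these data known. Named genes were the phytochromes, the 10 largest called changes each way (protein-coding, with a symbol in the table, mean of at least 2 TPM), 2 called members of smallest adjusted p per list, and 4 genes each way by the gap of replicate 1. Further list members were named after their values were seen. Alternatives were other scalings, filters, pseudocounts, fits and each library left out; removal of a loess trend (span 0.3) on log2 length in each library, with and without phyA-211 replicate 1, and centring without that replicate were added after seeing the data.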

Additional observations from a re-analysis of the deposited data

Results flagged for a closer look

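Of the 76 genes named by the rule, 42 had a difference between phyA-211 and wild type under submergence that was not the difference in air, by the interaction term of limma over the 12 libraries (adjusted p from 4.16e-05 to 0.0450). Over all 17612 genes tested, this term called 8.86% above 0 and 2.42% below. Apart from the phytochromes, the 76 were picked by their submerged values. The term reuses those libraries, so 42 of 76 adds no support. MRD1 and QRT1 passed the filter through the mutant, and HSP17.6II and HSP23.6-MITO only through wild type. The values here are the submerged difference minus the air difference on the log2(TPM + 1) scale, and the trend on transcript length was not removed from them. Among hypoxia and sugar breakdown genes the value was 3.93 for LBD41, 3.02 for AT5G39890 (PCO2), 3.11 for PDC2 and 1.09 for GAPC2. It was 4.81 for NUDT21 and 4.36 for RHL41, which were lower in phyA-211 in air and higher under submergence.

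It was 3.65 for CBF2, 3.69 for ACR7, 3.08 for AT1G04770, 3.00 for SRO4, 2.99 for RLP19, 2.47 for DIC2 and 2.2 for EMB2770. MRD1 and QRT1, which were higher in the mutant in both conditions, had values of 1.3 and 2.67. PHYA had a value of 1.29, since the mutant was further under wild type in air than under submergence, and PHYE had one of 1.23. Among hormone, clock and glucosinolate genes it was 1.56 for RGL1, 0.81 for GID1A, 1.25 for ABF4, 1.55 for ARL, 0.93 for FHL, 1.14 for RVE1, 1.78 for MYB51 and 1.68 for FMO GS-OX3.

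Among genes lower in the submerged mutant, the value was -3.14 for GER3, -2.42 for AGP24, -2.34 for HSP17.6A and for GSTU24, -2.09 for PRA1.F4 and -2.02 for AGP2. It was -1.94 for CAB2, -1.74 for CAB3, -1.28 for RBCS3B, -1.56 for LP1, -1.73 for HSP23.6-MITO and -1.65 for HSP17.6II. It was -1.50 for IAA29, -1.48 for XTH6, -1.21 for ACS11 and -1.21 for CDF1. AT7SL-1, which was not called under submergence, had a value of -4.42. The cause of these differences was not tested.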

How the results depend on the processing

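Counts are given as genes called higher, lower, and called with libraries that do not overlap. They were 6537, 1324 and 6456 with all 18 libraries in the fit, 437, 233 and 669 with a replicate block, and 11243, 4216 and 8318 with array weights, whose estimate did not converge (weights from 0.0242 to 1104). Without a filter 699 were higher, after median centring 698 and 1196 were higher and lower, and after quantile normalization 1023 were lower. With each library left out in turn the counts ranged from 107 to 9587, from 48 to 2905 and from 155 to 12484, highest each time without phyA-211 replicate 1. With the alternatives added after seeing the data, the length trend removed gave 1574 lower and 2510 not overlapping. The same without phyA-211 replicate 1 gave 4548, 4570 and 6774, and median centring without that replicate gave 4639, 6856 and 8194. The count for the difference between submergence and air, 1986, was 5278 with all 18 libraries, 1195 without a filter and between 467 and 9792 with a phyA-211 library left out. The other planned settings (pseudocount 0.1, at least 5 TPM, rescaling to nuclear protein-coding genes, no robust moderation) kept these counts within 1.5 times where they were run.

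PHYA kept its direction under every setting. Its call was lost under the replicate block (-1.11, adjusted p = 0.0566) and with each wild-type library or phyA-211 replicate 2 left out. With each library left out in turn the difference ranged from -1.27 to -0.92. Whether replicate numbers pair the samples is not known. Deviations of same-numbered libraries correlated at only 0.0482, 0.0539 and 0.0201 across genes, yet every library correlated best with its own number, a hint from the data only. The block therefore shows only how a shared number moves the counts, to 437 higher and 233 lower.

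Directions turned in genes that were not called. Without the length trend PHYC was at -0.30, PHYD at -0.0826, BXL1 at -0.16, SYD at -0.0762, AT7SL-1 at 0.21 and PDF1.3 at 0.19, and without phyA-211 replicate 1 as well PHYC was at -0.31 and PHYD at -0.14. AT7SL-1 was at 0.03 without wild-type replicate 1, 0.04 without replicate 3 and 0.77 without phyA-211 replicate 2, against a lowest value of -0.88 without phyA-211 replicate 1. PDF1.3 was at 0.0054 without phyA-211 replicate 2 and 0.57 without replicate 3, against a lowest value of -0.85 without replicate 1. The cause of these shifts was not tested.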
